A study of Mus musculus with 8 samples.

Results

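The course of reprogramming without inhibitor was followed in mouse cells that received only the solvent DMSO, by setting 2 arrays from day 6 against 2 arrays from day 3. These were the 4 arrays titled as DMSO samples, of 8 in the series. The other 4 arrays, from cells given CSA (written as 10 mM in the labels; the calcineurin inhibitor cyclosporin A), came from the same 2 days with 2 arrays each. All 8 came from cells of C57BL/6 background that carried an inducible set of the factors Oct4, Sox2, Klf4 and Myc (OSKM) in a secondary system, in which doxycycline switches the factors on. Every culture, the DMSO cultures included, was kept in a medium for mouse embryonic stem cells that held 15% serum and leukemia inhibitory factor (100 units per ml), and doxycycline was added to start reprogramming, at a dose the labels write as 2 mg per ml. The series' design text calls the 2 samples of a group independent biological repeats. The sources used here do not give the starting cell type, any sorting of cells or a sample from before doxycycline, so each value below sets a later day of induction against an earlier one and not against the starting cells. In such bulk RNA, fewer cells of a type and less RNA per cell cannot be told apart.

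Induction of OSKM first makes somatic cells divide faster, lose mesenchymal features and take on epithelial ones, in what is called the mesenchymal-to-epithelial transition. The endogenous pluripotency network is switched on later, in a minority of the cells, while many others stall or take up other fates. Immediate early genes such as Fos and Egr1 answer growth factor and stress signals, collagens and matrix proteins are typical products of fibroblasts, and claudins, desmosomes and keratins are those of epithelia.

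The difference between the days was broad. Of 12529 genes tested, each read through the brightest of its tested probe sets on average, 5732 (45.7%) passed an adjusted p of 0.05 in limma, 3272 of them higher (26.1%) and 2460 lower (19.6%) at day 6. The arrays of the days did not overlap, whatever the test, for 41.2% of genes with day 6 higher and 31.8% with day 6 lower. At least 2-fold differences numbered 1104 higher and 348 lower, and at least 4-fold ones 242 and 49. Between the arrays of a day the log2 signals correlated at 0.968 (day 3) and 0.974 (day 6), and between days at 0.918 to 0.925. The share that is higher depends on how the days are put on 1 scale. The deposited signals share a linear trimmed mean of 496.8 to 497.4 per array, while the median log2 signal of the tested probe sets was 8.22 and 8.23 at day 3 and 8.47 on both arrays of day 6. With array medians set equal, 48.1% passed, 1992 higher (15.9%) and 4038 lower (32.2%), and the median difference over genes was -0.17, against 0.08 as deposited. With quantile normalization they were 2672 (21.3%) and 2756 (22%), with a median of -0.03. For this reason the lists counted below are given with the number of their genes that passed in the same direction under all 3 scalings, here called held, beside the same share of all tested genes: 1950 were held higher (15.6%) and 2109 held lower (16.8%). A value after ± is limma's moderated standard error of a difference between 2 and 2 arrays, and log2 differences are day 6 minus day 3 on the deposited scale.

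Differences also ran with signal and with gene length. Among genes with a mean log2 signal of 7 to 9, 31.3% were higher and 9.94% lower, with a median difference of 0.26, while above 13 only 6.96% were higher and 59.9% lower, with a median of -0.24. Under quantile normalization the medians of these bands lay at -0.00 and -0.02. When genes were divided into 5 equal groups by the span of the gene on the genome (RefSeq, GRCm38.p6), the median difference rose in each step, from -0.08 in the shortest group, of genes up to 7.73 kb, to 0.30 in the longest, of genes over 69.1 kb. In the longest group 39.8% were higher and 9.41% lower. This gradient remained under quantile normalization, from -0.15 to 0.18, and ran from -0.00 to 0.21 between the same days under CSA. The part of these gradients in the gene lists below was not tested. Lists whose median span lies in the shortest group are the keratinocyte (3.04 kb), Hox (4.27 kb), immediate early (4.79 kb), oxidative phosphorylation (7.51 kb), chemokine (6.73 kb) and innate defence genes (6.77 kb). The Ly6 family (3.9 kb), the macrophage markers (4.93 kb), the reprogramming factors (5.02 kb) and the simple keratins (7.63 kb) are there too. In the longest group are the collagens (114 kb), calcineurin and NFAT genes (86.1 kb) and genes of focal adhesions (71.5 kb).

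**Figure D1:**
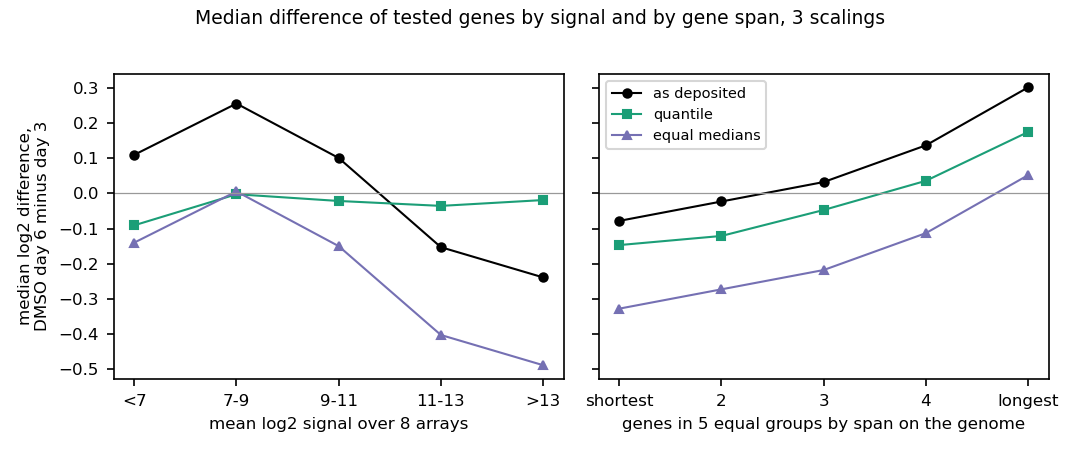
Median log2 difference between DMSO day 6 and day 3 over the tested genes, on the left by mean log2 signal over 8 arrays (5 bands) and on the right by the span of the gene on the genome (5 groups of equal number), for the deposited signals (circles), quantile normalization (squares) and equal array medians (triangles). The deposited line falls to -0.24 above a signal of 13 and the quantile line stays near 0, while on the right all 3 lines rise toward the longest genes.

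The largest rises joined genes of quite different kinds. Tac2, the precursor of the neuropeptide neurokinin B, read 2.10 and 1.75 on the day 3 arrays, under the signal of 5.37 below which probe sets were not tested, and 10.18 and 10.07 on the day 6 arrays (difference 8.20 ± 0.47, limma adjusted p = 4.28e-07). Slc17a6, a vesicular glutamate transporter, went from 1.81 and 3.94 to 9.93 and 9.70 (6.94 ± 0.56, adjusted p = 3.39e-06). Both were near the bottom of the signal range at day 3, so the size of their fold is uncertain (5.0 and 4.51 with 32 added to the anti-logged signals), but the days did not overlap. Saa1, the acute phase protein serum amyloid A, read 5.90 and 6.21 at day 3 and 11.96 and 11.83 at day 6, 57.2 times higher (5.84 ± 0.23, adjusted p = 3.73e-08). Ret, the receptor tyrosine kinase for ligands of the GDNF family, read 6.73 and 6.15 and then 11.64 and 11.97, 41.4 times higher (5.37 ± 0.21, adjusted p = 2.76e-08). In both the gap between days was many times the gap between the arrays of a day; cross-hybridisation of Saa1 with its close relatives was not tested. Other secreted signals in the same rank were Ucn3, urocortin, at 4.26 ± 0.18 and Penk, the enkephalin precursor, at 4.86 ± 0.43. Others were the matrix protease Mmp3 at 5.06 ± 0.40, the LIM domain protein Pdlim4 at 5.98 ± 0.45 (3.81 with 32 added, since its day 3 signals of 3.42 and 2.77 are under the filter signal), the membrane protein Tmem45b at 3.79 ± 0.17 and the tetraspanin Tspan8 at 3.71 ± 0.20. Col17a1, the collagen of hemidesmosomes that anchors epithelia, read 3.30 and 4.87 at day 3 and 8.85 and 8.84 at day 6 (4.76 ± 0.85, adjusted p = 0.000898).

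Falls of at least 4-fold were fewer than rises, 49 against 242 as deposited and 83 against 172 with equal array medians. U90926 read 12.90 and 12.77 on the day 3 arrays and 7.67 and 7.77 on the day 6 arrays, 34.6 times lower (-5.11 ± 0.09, limma adjusted p = 6.2e-11). Its days were far apart and its arrays of a day close together. Elmod1, a GTPase-activating protein of the ELMO family, fell from 11.25 and 11.19 to 8.36 and 7.88 (-3.10 ± 0.14, adjusted p = 7.02e-08). Tubb3, the beta-tubulin typical of neurons, fell from 12.02 and 11.88 to 9.59 and 9.50 (-2.41 ± 0.09, adjusted p = 3.65e-08). The steroid dehydrogenase Akr1c18 fell by 2.74 on the log2 scale, the BMP antagonist Chrdl1 by 2.86, the annexin Anxa10 by 2.35 and the carbonic anhydrases Car13 and Car3 by 2.37 and 2.66. Serum amyloid P, Apcs, fell from 7.90 and 7.76 to 3.07 and 2.02, which is below the filter signal (-5.28 as fitted and -2.77 with 32 added), and Ascl2, a transcription factor of the trophoblast lineage, from 8.40 and 8.38 to 3.47 and 6.46. The latter pair of day 6 arrays differ by much more than those of the genes before.

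**Figure D2:**
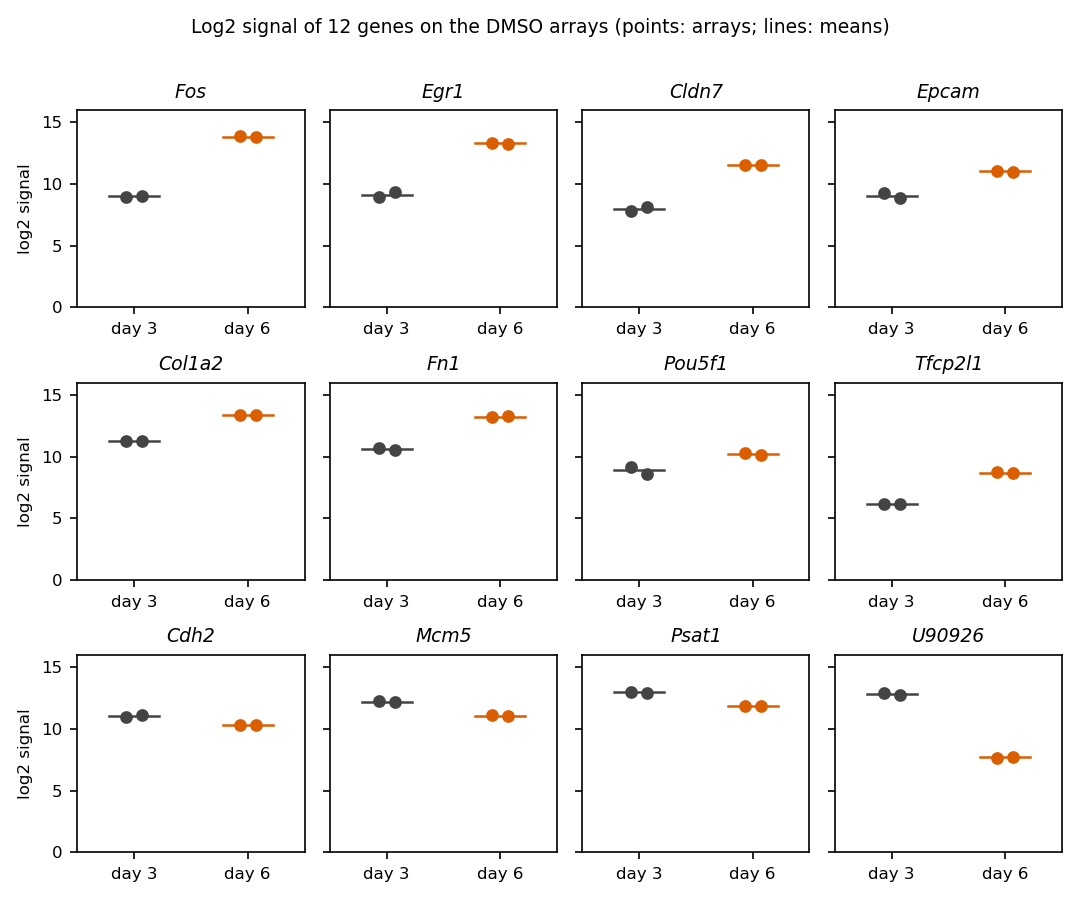
Log2 signal of 12 genes (vertical axis, 0 to 16) on the 2 day 3 arrays and the 2 day 6 arrays in DMSO; points are arrays and lines are group means. The days do not overlap for any of the 12; Fos, Egr1, Cldn7, Epcam, Col1a2, Fn1, Pou5f1 and Tfcp2l1 are higher at day 6, and Cdh2, Mcm5, Psat1 and U90926 are lower.

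Immediate early genes, which code for short-lived transcription factors and feedback proteins, were high at day 6. Of 22 tested genes of this class 20 rose and 1 fell, with a median of 1.37, and 18 were held higher (81.8%, against 15.6% of all tested genes). Fos, a subunit of the AP-1 dimer, read 8.93 and 9.05 at day 3 and 13.88 and 13.78 at day 6, 28.6 times higher (4.84 ± 0.16, limma adjusted p = 9.05e-09). Its paralog Fosb read 5.47 and 5.83 and then 10.43 and 10.45 (4.80 ± 0.25, adjusted p = 2.37e-07). Egr1, a zinc finger factor induced by ERK signalling, read 8.91 and 9.35 and then 13.35 and 13.27, 18.1 times higher (4.18 ± 0.20, adjusted p = 1.14e-07). In each of these the 2 day 6 arrays lay close together and far above both day 3 arrays. Zfp36, which destabilises AU-rich mRNAs, rose by 2.31 ± 0.10, the orphan nuclear receptor Nr4a1 by 1.43 ± 0.07 and the antiproliferative gene Btg2 by 1.12 ± 0.09. The exception was Fosl1 (Fra-1), the AP-1 subunit of migrating and mesenchymal cells, which fell from 10.19 and 10.22 to 8.58 and 8.23 (-1.80 ± 0.13, adjusted p = 1.69e-06). AP-1 genes thus did not move as a block.

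Many immediate early genes are controlled through the CArG box, the site of serum response factor, and Srf itself read 8.19 and 8.31 at day 3 and 9.19 and 9.32 at day 6 (1.0 ± 0.15, limma adjusted p = 0.000331); without probe sets whose names end in _x_at or _s_at its value was -0.26. The promoters of Zfp36 and Egr2 are printed to show where the box lies in 2 genes of the class; they were chosen because the 250 bases before their start hold it. They are RefSeq promoters of build GRCm38.p6, 5′ to 3′ on the gene's strand, with the CArG box in capitals: Zfp36 at chr7:28379229-28379478 on the minus strand, 58 bases before the start, and Egr2 at chr10:67537316-67537565 on the plus strand, 72 bases before it.
Zfp36: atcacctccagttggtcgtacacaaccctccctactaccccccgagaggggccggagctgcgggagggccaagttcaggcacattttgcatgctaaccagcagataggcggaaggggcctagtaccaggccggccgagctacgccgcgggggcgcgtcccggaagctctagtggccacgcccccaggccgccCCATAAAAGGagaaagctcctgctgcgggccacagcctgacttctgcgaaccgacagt
Egr2: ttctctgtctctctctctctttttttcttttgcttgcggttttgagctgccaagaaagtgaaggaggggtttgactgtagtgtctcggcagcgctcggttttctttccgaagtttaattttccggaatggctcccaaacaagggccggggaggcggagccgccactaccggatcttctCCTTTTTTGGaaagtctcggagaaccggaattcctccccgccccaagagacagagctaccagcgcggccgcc
A CArG box on either strand was found in 1.47% of all 32851 RefSeq promoter windows of this length. Of the 22 tested genes of the class 17 had windows, 23 in all, and 5 of these (21.7%) held the box. All 5 belong to the 2 genes printed, 1 to Zfp36 and 4 to Egr2. The windows of the other genes, Fos and Fosb among them, held none, so the 2 promoters are not typical of the windows searched. Bases further upstream were not searched, and Egr1 was among the genes without a window. How common the box is near genes of the class therefore cannot be told from these windows. A match is a description of the sequence, and its use was not measured here. The Egr2 gene, which has 5 such windows, rose by 2.13 ± 0.44.

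Feedback genes of the ERK pathway and ligands of the EGF family moved the same way. Of 23 tested, 14 rose and 1 fell (median 0.80), and 13 were held higher (56.5%). Dusp6, the phosphatase that removes the activating phosphates from ERK, read 9.48 and 9.85 at day 3 and 11.36 on both arrays of day 6 (1.70 ± 0.13, limma adjusted p = 2.83e-06). The nuclear ERK phosphatase Dusp5 changed by 2.64 ± 0.34, Dusp4 by 0.75 ± 0.08, the ETS factor Etv5 by 1.76 ± 0.16 and the Ras pathway inhibitor Spred1 by 1.13 ± 0.10, all past the threshold. Ereg, the EGF family ligand epiregulin, was the 1 that fell, by 0.42 on the log2 scale. The ligand thus moved against the feedback genes named before it.

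Genes of epithelial junctions were higher at day 6. Of 22 tested genes of adherens and tight junctions 19 rose and none fell in limma at the threshold (0 of 22, and 0 also at an unadjusted p under 0.05; background 26.1% higher and 19.6% lower), the median was 1.19, and 16 were held higher (72.7%). With equal array medians 16 rose and 1 fell. Anti-logged and summed over the 24 genes of the list on the array, the signal was 21220 and 22040 on the day 3 arrays and 40850 and 41460 on the day 6 arrays. Cldn7, a claudin and an early epithelial marker of reprogramming cells, read 7.82 and 8.16 at day 3 and 11.57 and 11.51 at day 6, 11.7 times higher (3.55 ± 0.13, adjusted p = 2.1e-08). Cldn4 read 8.96 and 8.98 and then 11.66 and 11.67 (2.70 ± 0.10, adjusted p = 2.1e-08). Epcam, the epithelial adhesion molecule, read 9.25 and 8.84 and then 11.03 and 11.01, 3.93 times higher (1.98 ± 0.14, adjusted p = 1.69e-06). The days were apart for all of these. Occludin (Ocln) rose by 2.01 ± 0.14 and the epithelial splicing factor Esrp1 by 2.65 ± 0.19. E-cadherin, Cdh1, the core of the adherens junction, read 12.52 on both day 3 arrays and 13.17 and 13.12 at day 6 (0.63 ± 0.07, adjusted p = 2.34e-05). It was thus already well above the filter signal at day 3, and its rise was the smaller one.

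Transcription factors of epithelia rose with the junctions: 7 of 12 tested rose and 0 fell at the limma threshold or at an unadjusted p under 0.05, with 6 held higher (50%). Tfap2a, the AP-2 factor of surface ectoderm, read 6.39 and 6.82 at day 3 and 10.29 and 10.22 at day 6 (3.65 ± 0.24, limma adjusted p = 8.9e-07). Elf5 rose by 2.44 ± 0.20, Elf3 by 1.90 ± 0.21 and Ehf by 1.70 ± 0.13, all ETS factors of epithelia, and Grhl2, the activator of junction genes, by 1.88 ± 0.29. The 5 others did not pass the threshold on the deposited scale. Of the 12, 1 was past it and lower with equal array medians, and 1 with quantile normalization. Of the membrane protease system, the matriptase St14 read 9.95 and 9.76 and then 11.89 and 11.92 (2.05 ± 0.09, adjusted p = 6.93e-08). Its inhibitors Spint1 and Spint2 rose by 1.67 ± 0.10 and 1.15 ± 0.08, so this protease and these inhibitors moved together. Of the 8 tested genes of the membrane protease list 4 rose and 1 fell (62.5%), with 3 held higher and 1 held lower. The serpin Serpinb2 fell (-1.66 ± 0.39, limma adjusted p = 0.00542), to day 6 signals of 5.16 and 5.10, under the filter signal. Serpinb5 rose by 1.16 ± 0.35 but was not past the threshold with equal array medians (0.91).

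Among desmosome genes, which join epithelial cells to keratin filaments, 6 of 12 rose and 1 fell (58.3% called, against 45.7% of all tested genes), and all 7 were held. The cadherins Dsg2 and Dsc2 rose by 2.06 ± 0.13 and 1.70 ± 0.12 and the plakins Ppl and Evpl by 1.62 ± 0.20 and 1.03 ± 0.13. The plaque protein Pkp2 fell by 0.63 on the log2 scale (-0.34 and not past the threshold with its probe sets averaged), while its relative Pkp1 rose by 0.68 ± 0.08. Of the simple keratins, Krt8 read 13.66 and 13.78 at day 3 and 14.49 and 14.35 at day 6 (0.70 ± 0.06, limma adjusted p = 9.37e-06), its partner Krt18 rose by 1.58 ± 0.17 and Krt19 by 0.59 ± 0.11. Krt7 (-0.26 ± 0.11) and Krt20 (-0.30 ± 0.39) did not pass, although Krt7 did with quantile normalization (-0.35) and without day 3 replicate 2 (-0.41).

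Keratinocyte genes split. Of 28 tested, 12 rose and 5 fell (60.7%, against 45.7% of all tested genes called in either direction), and 10 and 4 were held. Galectin-7, Lgals7, a gene of stratified epithelia, read 9.09 and 9.19 at day 3 and 11.74 and 11.61 at day 6 (2.53 ± 0.10, limma adjusted p = 3.73e-08). The transglutaminase Tgm3, which crosslinks the cornified envelope, rose by 2.39 ± 0.20, the envelope precursor Sprr1a by 1.73 ± 0.12 and the stress keratin Krt16 by 0.95 ± 0.07. The close relatives Sprr1b and Sprr3 fell, by 3.64 and 0.85 on the log2 scale, and so did suprabasin, Sbsn, by 0.59. For Sprr1b the day 6 signals of 5.24 and 1.84 are under the filter signal and far apart, and its difference was -1.83 with 32 added to the anti-logged signals. Members of 1 gene family (the Sprr genes) thus went in opposite directions, and cross-hybridisation between these similar genes was not tested.

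Matrix genes of mesenchymal cells rose at the same time as the epithelial ones. Of 17 tested collagens 15 rose and none fell at the limma threshold (0 of 17, and 0 also at an unadjusted p under 0.05), with a median of 1.52 and 14 held higher (82.4%). These are long genes, with a median span of 114 kb. Col1a2, a chain of type I collagen, read 11.30 and 11.23 at day 3 and 13.35 and 13.37 at day 6, 4.27 times higher (2.10 ± 0.06, adjusted p = 4.94e-09), and the other chain, Col1a1, read 8.77 and 8.52 and then 10.44 and 10.42 (1.79 ± 0.12, adjusted p = 1.11e-06). Type III collagen, Col3a1, rose by 2.22 ± 0.08, Col5a1 by 2.14 ± 0.13, Col8a1 by 1.92 ± 0.11 and Col6a3 by 1.40 ± 0.09. For both chains of type I collagen the day 6 arrays lay close together and above both day 3 arrays.

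Of 24 tested matrix glycoproteins 19 rose and 2 fell (median 1.41), and 16 were held higher (66.7%). Fibronectin, Fn1, read 10.67 and 10.50 at day 3 and 13.20 and 13.25 at day 6, 6.25 times higher (2.64 ± 0.07, limma adjusted p = 3.18e-09). Mgp, matrix Gla protein, which inhibits calcification, read 8.80 and 9.08 and then 12.90 and 12.85, 15.3 times higher (3.94 ± 0.10, adjusted p = 1.43e-09). Periostin, Postn, an adhesion protein of remodelled matrix, read 6.04 and 5.58 and then 9.68 and 9.76 (3.91 ± 0.28, adjusted p = 1.86e-06). All 3 were apart between days by several units on the log2 scale. Biglycan (Bgn, 1.59 ± 0.09), Fbln2 (1.47 ± 0.09) and thrombospondin 1 (Thbs1, 1.47 ± 0.07) rose too. The 2 that fell were the small proteoglycan decorin, Dcn, by 0.50 on the log2 scale, and Fbln5, by 0.33. When the probe sets of a gene were averaged, Dcn was at 0.17 and not past the threshold. Fbln5 was not past it without day 3 replicate 2 (-0.21), day 6 replicate 1 (-0.34) or day 6 replicate 2 (-0.32).

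Mesenchymal regulators did not fall as a class, although the cadherin that marks mesenchyme did. N-cadherin, Cdh2, read 10.97 and 11.14 at day 3 and 10.30 and 10.34 at day 6 (-0.73 ± 0.08, limma adjusted p = 3.71e-05). Snai2 (Slug), a repressor of E-cadherin, read 9.01 and 8.80 and then 9.90 and 9.88 (0.98 ± 0.12, adjusted p = 5.23e-05). Twist1 and Zeb1, repressors of the same kind, rose by 0.94 ± 0.14 and 0.80 ± 0.14. Snai1 (0.24 ± 0.39) and Zeb2 (0.63 ± 0.32) did not pass, although Zeb2 did without day 3 replicate 2 (1.01). The intermediate filament Vim read 14.59 and 14.49 and then 14.28 and 14.18 (-0.30 ± 0.07, adjusted p = 0.00372), a fall that was lost with quantile normalization. In the list of mesenchymal regulators 8 of 17 rose and 2 fell, with 7 held higher and 1 held lower.

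Surface and identity genes of fibroblasts were mixed: 8 of 21 tested rose and 2 fell (47.6%, close to the 45.7% of all tested genes), with 7 and 2 held. Thy1, a surface glycoprotein that early reprogramming is known to silence, read 8.58 and 8.46 at day 3 and 10.33 and 10.34 at day 6, a rise of 1.82 ± 0.11 (limma adjusted p = 6.93e-07). The PDGF receptor Pdgfrb rose from 5.61 and 5.59 to 9.22 and 8.86 (3.44 ± 0.26, adjusted p = 2.59e-06) and Cd34 by 0.90 ± 0.13. The calcium-binding protein S100a4 fell from 14.26 and 14.13 to 13.38 and 13.27 (-0.87 ± 0.06, adjusted p = 2.12e-06), as did the factor Twist2, by 0.80 on the log2 scale. Summed over the list, which S100a4 leads, the anti-logged signal was 30220 to 31280 at day 3 and 26210 to 27140 at day 6, so the sum was lower at day 6 although more members rose than fell.

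Contractile genes of smooth muscle moved both ways. Of 13 tested, 3 rose and 6 fell (69.2%, against 45.7% of all tested genes), with 3 held higher and 4 held lower. Actg2, enteric actin, read 11.75 and 11.67 at day 3 and 10.00 and 9.71 at day 6 (-1.86 ± 0.10, limma adjusted p = 2.54e-07), and desmin, Des, fell by 2.28 on the log2 scale to 4.40 and 4.93, under the filter signal (-1.44 with 32 added to the anti-logged signals). The tropomyosin Tpm2 fell by 0.65. Acta2, the actin of myofibroblasts, rose instead, by 0.53 ± 0.08, and the myosin light chain Myl9 by 0.89 ± 0.15. Among 21 integrins and focal adhesion genes 9 rose and 3 fell (57.1%), but with equal array medians 5 rose and 6 fell, and 5 and 3 were held. The actin crosslinkers Actn1 and Flna were against the majority of this list, with falls of 0.74 and 0.65.

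Genes of the TGF-beta pathway were mostly higher, with 13 of 20 tested risen, 3 fallen and 12 held higher (60%). The ligands Tgfb2 and Inhbb rose by 1.29 ± 0.10 and 1.76 ± 0.12 and the receptor Tgfbr2 by 0.63 ± 0.08. The activin antagonist Fst fell by 0.47 on the log2 scale, while Inhbb, which codes for an activin subunit, rose. For BMP signals, Bmp4 read 6.48 and 6.76 at day 3 and 9.02 and 8.62 at day 6 (2.20 ± 0.23, limma adjusted p = 2.43e-05), the receptor Bmpr2 rose by 0.74 ± 0.08 and the effector Smad5 by 0.98 ± 0.14. The BMP antagonist Grem1 rose as well, by 1.70 ± 0.16, and the BMP target Id2 fell by 0.64 on the log2 scale. In all 10 of 18 tested BMP genes rose and 1 fell (61.1%, against 45.7% of all tested genes), with 7 and 1 held. Of the Wnt list 7 of 24 rose and 3 fell (6 and 3 held), a share of 41.7% that is near the 45.7% of all tested genes. Those that rose included the antagonists Dkk2 (3.62 ± 0.22) and Sfrp1 (1.77 ± 0.17) and the receptors Fzd1 (1.34 ± 0.15) and Lrp6 (1.26 ± 0.11). The ligand Wnt7a fell by 0.95 on the log2 scale.

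Of the factors that drive reprogramming, Pou5f1 (Oct4) read 9.18 and 8.58 at day 3 and 10.31 and 10.10 at day 6, 2.51 times higher (1.33 ± 0.18, limma adjusted p = 0.000166). Klf4 was at 0.51 ± 0.11, a rise lost with equal array medians, and Myc read 11.16 and 11.17 and then 11.41 and 11.37 (0.23 ± 0.08, adjusted p = 0.0448). Myc was at -0.02 with equal array medians, and its call was lost when any 1 of the 4 DMSO arrays was left out (0.21 to 0.25). Sox2 was not tested, since its signals were 5.59 and 5.30 at day 3 and 4.48 and 4.45 at day 6. Whether the probe sets of these genes read the induced copies, the endogenous ones or both is not given in the sources used here.

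Genes of the pluripotency network were present in part. Of 33 in the list, 20 were above the filter, 9 of these rose and 2 fell, and 7 were held higher (35.0%). Tfcp2l1, a factor of naive pluripotency, read 6.16 and 6.15 at day 3 and 8.75 and 8.65 at day 6 (2.54 ± 0.30, limma adjusted p = 5.01e-05). Nr0b1 (Dax1) rose from 5.03 and 4.83 to 7.84 and 7.52 (2.76 ± 0.35, adjusted p = 9.29e-05). Fbxo15, an Oct4 target used as an early reporter gene, rose from 4.26 and 5.75 to 8.73 and 8.29 (3.51 ± 0.47, adjusted p = 0.000122). The days were apart for all 3, and their day 3 signals were close to or under the filter signal of 5.37. Sall4 rose by 0.68 ± 0.13 and the growth factor gene Fgf4 by 1.19 ± 0.13. The 2 members that fell were the RNA-binding protein Lin28a from 9.03 and 9.11 to 8.31 and 7.79 (-1.02 ± 0.20, adjusted p = 0.00193) and the de novo methyltransferase Dnmt3b by 0.65 on the log2 scale. Nanog was under the filter and not tested, with signals of 3.34 and 5.39 at day 3 and 7.51 and 7.56 at day 6. The other 11 members on the array that were under the filter gave signals of at most 6.02 on any DMSO array. Tdgf1, a Nodal coreceptor, was 1 of these, with 2.34 and 0.49 at day 3 and 5.51 and 5.08 at day 6.

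In the list of early reprogramming markers 8 of 16 tested rose and 1 fell, with 8 held higher (50%). This list includes genes described above, Cldn7, Epcam, Cdh1 and Fbxo15 among them, so its count is not separate from the earlier ones. Alkaline phosphatase, Alpl, one of the first markers in fibroblasts, did not differ between the days beyond its error (-0.07 ± 0.29, limma adjusted p = 0.869). The surface marker Cd24a fell by 0.40 on the log2 scale, from 14.38 and 14.44 to 14.04 and 13.98. Fut4, an enzyme that can make the SSEA-1 epitope, was under the filter, with 5.81 and 6.55 at day 3 and 6.11 and 2.45 at day 6. So was Fut9, another such enzyme, with 3.58 and 4.56 at day 3 and 6.31 and 6.83 at day 6. Gdf3, a TGF-beta family ligand, was also under it, with 5.29 and 3.96 at day 3 and 6.49 and 6.52 at day 6.

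Enzymes that write and erase DNA and histone marks changed in both directions. The methyltransferase Dnmt3a rose by 1.19 ± 0.10 and the demethylation enzyme Tet2 by 0.96 ± 0.09, while Dnmt3b, a relative of Dnmt3a, fell as given above. The cytidine deaminase Apobec1 read 6.44 and 6.60 at day 3 and 8.79 and 8.88 at day 6 (2.32 ± 0.20, limma adjusted p = 5.61e-06). Of 25 tested histone methyltransferases and demethylases 17 rose and 1 fell (median 0.61), and 13 were held higher (52.0%). The H3K4 methyltransferases Kmt2a, Kmt2d and Kmt2b rose by 1.31 ± 0.15, 1.25 ± 0.11 and 0.92 ± 0.10 and the H3K27 demethylase Kdm6b by 1.01 ± 0.10. The arginine methyltransferase Prmt5 fell by 0.61 on the log2 scale. Of 21 tested remodelers 8 rose and 3 fell (52.4%, against 45.7% of all tested genes), but with equal array medians 5 rose and 6 fell, and 5 and 3 were held. Atrx, Smarca2 and Chd4 rose by 1.37 ± 0.09, 1.49 ± 0.10 and 1.0 ± 0.09, while Mbd3 fell by 0.74. Actl6a (-0.81 ± 0.11) and Hells (-0.36 ± 0.09) fell too. Of 22 Polycomb genes 5 rose and 3 fell (36.4%, against 45.7% of all tested genes), but with equal array medians 5 rose and 9 fell, and 5 and 2 were held. Jarid2 was at 1.68 ± 0.13 and Bmi1 at -0.42 ± 0.08. The histone methyltransferases and demethylases are long genes, with a median span of 45.9 kb.

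**Figure D3:**
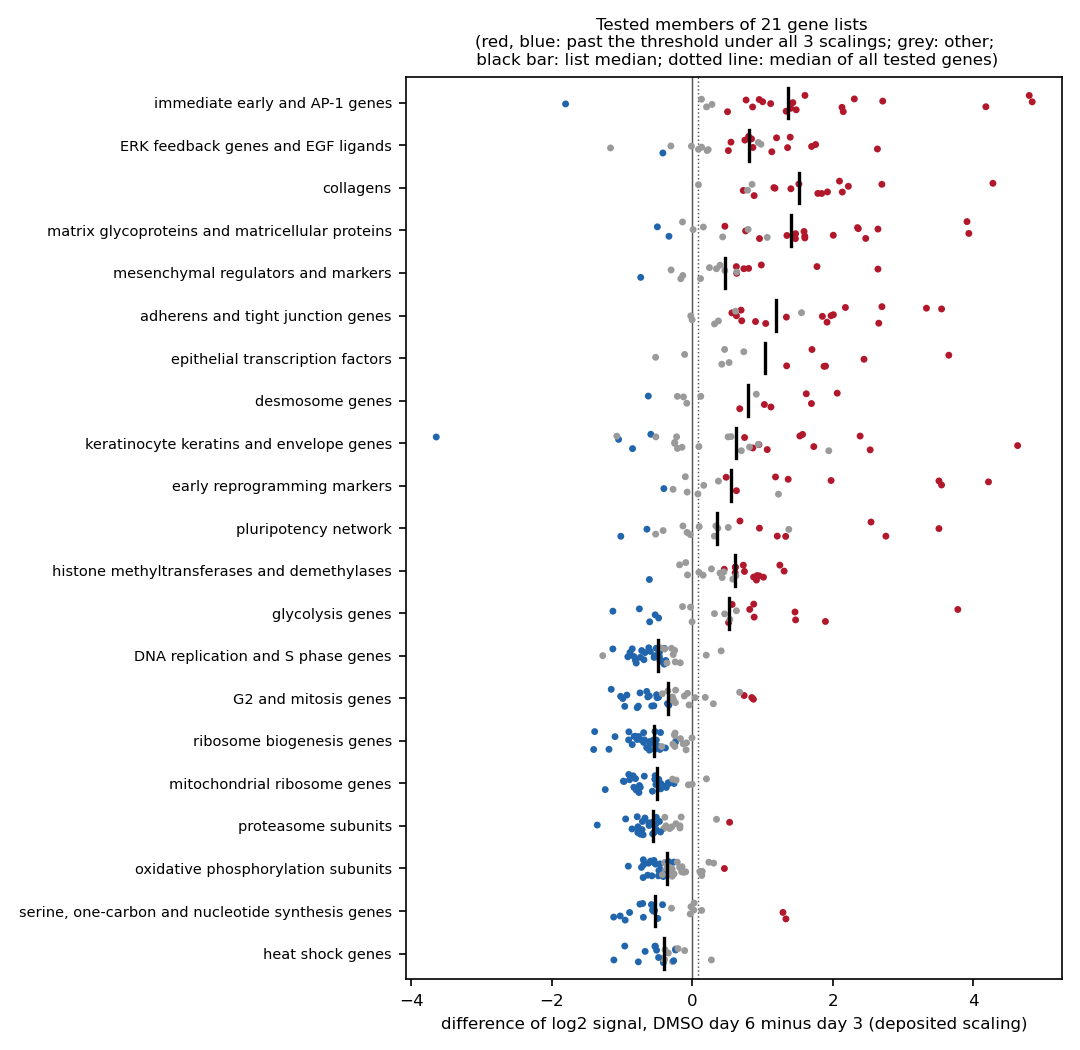
Log2 difference between DMSO day 6 and day 3 (horizontal axis) of the tested members of 21 gene lists, 1 point per gene; red and blue points passed the threshold in 1 direction under all 3 scalings, grey points did not, black bars are list medians and the dotted line is the median of all tested genes, 0.08. Immediate early, collagen, matrix and junction genes lie mostly to the right, and replication, ribosome, proteasome and one-carbon genes mostly to the left.

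Genes of DNA replication were lower at day 6. Of 36 tested, 27 fell and none rose at the limma threshold (0 of 36, and 0 also at an unadjusted p under 0.05), the median was -0.49, and 25 were held lower (69.4%, against 16.8% of all tested genes). The helicase subunit Mcm5 read 12.24 and 12.19 at day 3 and 11.13 and 11.04 at day 6, 2.19 times lower (-1.13 ± 0.07, adjusted p = 8.68e-07). Mcm4 and Mcm3 fell by 0.92 and 0.67 on the log2 scale, the ribonucleotide reductase subunit Rrm2 by 0.89 and the origin protein Orc6 by 0.83. In the separate list of G1 cyclins and E2F genes 6 of 17 fell and 2 rose (47.1%, near the 45.7% of all tested genes), with 4 held lower and none higher. Cyclin E2, Ccne2, which drives entry into S phase, fell by 1.28 and the E2F repressor E2f7 by 1.01, while E2f3 (0.27 ± 0.10) and Rbl2 (0.42 ± 0.13) rose as deposited. Neither passed with equal array medians (0.02 and 0.17) or with probe sets averaged (-0.058 and 0.33), E2f3 was lost without any 1 of the 4 DMSO arrays (0.19 to 0.36), and Rbl2 without day 3 replicate 1 (0.36) or either day 6 array (0.46 and 0.38).

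In the list for G2 and mitosis 21 of 37 fell and 4 rose, with 19 held lower (51.4%) and 3 held higher. The kinase Aurka read 11.65 and 11.53 at day 3 and 10.59 and 10.55 at day 6 (-1.02 ± 0.09, limma adjusted p = 7.81e-06). Cyclin A2 (Ccna2), survivin (Birc5) and the checkpoint protein Mad2l1 fell by 0.99, 0.96 and 0.93 on the log2 scale. The 4 that rose were the phosphatase Cdc25b (0.74 ± 0.12), the kinetochore proteins Cenpf (0.85 ± 0.15) and Bub1b (0.87 ± 0.17), and the proliferation antigen Mki67 (0.30 ± 0.09). Mki67 was not past the threshold with equal array medians (0.05), without day 3 replicate 1 (0.19) or without day 6 replicate 1 (0.23), and Bub1b not when its probe sets were averaged (0.41). Mki67 and Cenpf thus did not follow the cyclin and kinase genes.

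Inhibitors of the cell cycle were higher in part. Cdkn2a, the Ink4a/Arf locus that blocks reprogramming of many cells, read 8.73 and 8.54 at day 3 and 10.21 and 10.17 at day 6 (1.55 ± 0.19, limma adjusted p = 5.69e-05). Its neighbour Cdkn2b rose by 0.82 ± 0.09, while Cdkn2c, another CDK inhibitor, fell by 0.63 on the log2 scale (limma adjusted p = 0.0123). Cdkn1a (p21), a main target of p53, read 13.60 and 13.49 and then 13.51 and 13.47, a difference of -0.05 ± 0.06 (adjusted p = 0.55) that is smaller than the gap between the day 3 arrays. With quantile normalization it was 0.20 (adjusted p = 0.0185) and with equal array medians -0.30 (adjusted p = 0.0029), so its direction is set by the scaling. Of the 23 tested CDK inhibitors, p53 and its targets 10 rose and 3 fell (56.5%, against 45.7% of all tested genes). With equal array medians 7 rose and 7 fell, and 7 and 3 were held.

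Cell cycle genes are known to share promoter elements, the CCAAT box and, in genes of G2 and mitosis, the cell cycle homology region TTTGAA, and 2 promoters of the list are printed because they hold both. They are RefSeq windows of 250 bases before the start (GRCm38.p6, 5′ to 3′ on the gene's strand), with CCAAT and TTTGAA in capitals, or ATTGG and TTCAAA where the element lies on the other strand. Ckap2, a spindle protein, lies at chr8:22185820-22186069 on the minus strand, and Cenpn, of the centromere, at chr8:116921490-116921739 on the plus strand.
Ckap2: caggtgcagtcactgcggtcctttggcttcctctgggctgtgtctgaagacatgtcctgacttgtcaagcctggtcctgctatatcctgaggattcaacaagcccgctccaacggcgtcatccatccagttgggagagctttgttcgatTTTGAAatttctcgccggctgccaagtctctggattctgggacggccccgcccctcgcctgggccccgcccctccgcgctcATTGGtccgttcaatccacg
Cenpn: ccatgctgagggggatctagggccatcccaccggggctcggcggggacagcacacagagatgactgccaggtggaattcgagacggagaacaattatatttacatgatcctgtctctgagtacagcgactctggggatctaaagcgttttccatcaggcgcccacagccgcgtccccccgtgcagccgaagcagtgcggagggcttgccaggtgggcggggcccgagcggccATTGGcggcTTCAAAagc
Both elements were searched on both strands, and they do not overlap each other here. Of the 37 tested genes of G2 and mitosis 31 had windows, 33 in all, and 78.8% of these held CCAAT and 39.4% held TTTGAA. In the windows of all tested genes these shares were 34.8% and 10.5%, and in all RefSeq windows 33.8% and 16%. Ckap2 fell from 11.70 and 11.63 to 10.86 and 10.98 (-0.74 ± 0.10, limma adjusted p = 9.27e-05) and Cenpn by 0.55 on the log2 scale. Cenpn was not past the threshold without day 6 replicate 1 (-0.40). Of 34 windows of replication genes, 17.6% held the E2F type elements TTTGGCGC or TTTCCCGC, against 2.34% for all tested genes. No site was tested for use.

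Genes that make ribosomes were lower at day 6. Of 40 tested ribosome biogenesis genes 33 fell and none rose at the limma threshold (0 of 40, and 0 also at an unadjusted p under 0.05), with a median of -0.55 and 29 held lower (72.5%). Nop16, a nucleolar assembly factor, read 11.55 and 11.52 at day 3 and 10.26 and 10.04 at day 6 (-1.39 ± 0.10, adjusted p = 1.45e-06). The RNA polymerase I subunits Polr1b and Polr1e fell by 1.40 and 1.19 on the log2 scale, and the snoRNP proteins Nop56 and Nop10 by 0.83 and 0.85. Of 34 genes of the mitochondrial ribosome 30 fell and 0 rose (0 in limma, and 0 also at an unadjusted p under 0.05), with 28 held lower (82.4%), among them Mrpl20 from 11.92 and 11.96 to 10.67 and 10.73 (-1.24 ± 0.07, adjusted p = 5.42e-07) and Mrpl18 (-0.97 ± 0.08). The mitochondrial ribosome genes are short, with a median span of 8.32 kb.

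Subunits of the proteasome, which degrades ubiquitinated proteins, fell in 29 of 34 cases and rose in 2 (median -0.55), and 23 were held lower (67.6%). Psmd7, of the regulatory particle, read 12.62 and 12.61 at day 3 and 11.71 and 11.63 at day 6 (-0.95 ± 0.07, limma adjusted p = 3.05e-06). Psmd12 and the ATPase Psmc3 fell by 0.78 and 0.77 on the log2 scale, and the core subunit Psma4 by 0.67. Psme1, of the activator induced by interferon, rose by 0.53 ± 0.10. The list has a high median signal, 12.5, in the range in which 44.5% of all tested genes (11 to 13) were lower.

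Promoters of proteasome genes often hold CCGGAAG, the core site of ETS factors, and 2 of them are printed in the same way, with that element or its reverse CTTCCGG in capitals. Psmd12 lies at chr11:107479278-107479527 on the plus strand and Psme3, of a nuclear activator, at chr11:101315963-101316212 on the plus strand.
Psmd12: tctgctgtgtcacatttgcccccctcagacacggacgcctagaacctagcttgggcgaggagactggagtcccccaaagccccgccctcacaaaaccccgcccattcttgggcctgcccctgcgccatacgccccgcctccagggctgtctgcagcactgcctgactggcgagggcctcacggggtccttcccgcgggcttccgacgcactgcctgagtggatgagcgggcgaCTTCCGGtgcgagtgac
Psme3: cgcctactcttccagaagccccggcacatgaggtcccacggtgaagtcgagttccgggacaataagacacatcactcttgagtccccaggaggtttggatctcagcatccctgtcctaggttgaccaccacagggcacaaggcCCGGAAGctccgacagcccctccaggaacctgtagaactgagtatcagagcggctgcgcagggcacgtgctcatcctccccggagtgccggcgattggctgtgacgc
The element lies 17 bases before the start in Psmd12 and 107 bases before it in Psme3. It was found in 36.7% of the 30 windows of 28 tested proteasome genes, against 12.8% of the windows of all tested genes and 6.91% of all RefSeq windows. Psme3 fell by 0.77 on the log2 scale.

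Energy metabolism was split. Of 45 subunits of oxidative phosphorylation 34 fell and 2 rose, with a median of -0.35, but with quantile normalization the median was -0.16, and 20 were held lower (44.4%). Their median signal was 12.6 and their median span 7.51 kb. Ndufb6, of complex I, read 13.56 and 13.57 at day 3 and 12.67 and 12.64 at day 6 (-0.91 ± 0.06, limma adjusted p = 8.24e-07), and Cox5a fell by 0.63 on the log2 scale, while Ndufa6 rose by 0.46 ± 0.07. Of 22 genes of the tricarboxylic acid cycle 12 fell and 3 rose, but only 3 were held lower and 1 higher, and the median under quantile normalization was -0.00. Malate dehydrogenase, Mdh2, was at -0.57 ± 0.06 and held lower. The fall of this list therefore depended on the scaling.

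Of 21 glycolysis genes 12 rose and 5 fell, and 9 and 5 were held. The glucose transporter Slc2a1 read 11.48 and 11.63 at day 3 and 13.03 and 13.02 at day 6 (1.47 ± 0.07, limma adjusted p = 1.15e-07). Aldoc, the aldolase of brain, read 7.58 and 7.63 and then 11.30 and 11.47, 13.7 times higher (3.78 ± 0.24, adjusted p = 7.67e-07). Pdk1, a kinase that inhibits pyruvate dehydrogenase, rose by 1.46 ± 0.11. Eno3, Pgam1 and Pgk1, enzymes of later steps, fell by 1.13, 0.61 and 0.53 on the log2 scale. The transporter and the regulator named thus rose, and these later enzymes fell.

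Enzymes that make serine and one-carbon units fell: 14 of 21 genes of the list were lower and 2 higher, with 13 held lower (61.9%). Psat1 read 13.03 and 12.95 at day 3 and 11.87 and 11.88 at day 6 (-1.12 ± 0.06, limma adjusted p = 3.79e-07), Psph and Phgdh, of the same pathway, fell by 1.03 and 0.70 on the log2 scale, and Adsl of purine synthesis by 0.95. The mitochondrial folate enzyme Aldh1l2 rose, from 6.57 and 6.59 to 7.94 and 7.81 (1.29 ± 0.14, adjusted p = 2.41e-05), as did Gldc of the glycine cleavage system, by 1.33 ± 0.30. Of 20 cholesterol synthesis genes 9 fell and 3 rose (60%, against 45.7% of all tested genes), with 7 and 2 held. Idi1 and Msmo1 fell by 0.85 and 0.70, while the regulator Srebf2 rose by 0.54 ± 0.10 and the last enzyme of the pathway, Dhcr7, by 0.71 ± 0.14. Of 19 genes of fatty acid synthesis and storage 8 fell and 5 rose (68.4%), with 6 and 1 held. The lipase Lpl read 10.15 and 9.83 and then 8.28 and 8.46 (-1.62 ± 0.14, adjusted p = 5.4e-06), and malic enzyme, Me1, fell by 0.90, while Srebf1, the regulator of lipid synthesis, rose by 0.72 ± 0.09.

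Stress genes were mostly lower. Of 20 tested heat shock genes 17 fell and 1 rose, and 11 were held lower (55.0%). They have the highest median signal of the lists named here, 13.1, and their median was -0.40 as deposited and -0.26 with quantile normalization. Cryab, a small heat shock protein, read 13.79 and 13.84 at day 3 and 12.88 and 12.83 at day 6 (-0.96 ± 0.06, limma adjusted p = 8.68e-07), and Hsph1 and Hspe1 fell by 0.77 and 0.67 on the log2 scale. Of 22 antioxidant and metallothionein genes 14 fell and 0 rose (0 in limma, and 0 also at an unadjusted p under 0.05), with 12 held lower (54.5%), among them Gclm of glutathione synthesis at -0.81 ± 0.09 and thioredoxin, Txn1, at -0.65 ± 0.06. With quantile normalization 15 of this list fell and 1 rose. Genes of the unfolded protein response were split, with 10 of 29 lower and 7 higher (58.6%), and 7 and 4 held. Edem1 and Sdf2l1 of ER quality control fell by 0.82 and 0.88, and the phosphatase subunit Ppp1r15a rose by 0.93 ± 0.17. Of 29 lysosome genes 13 rose and 8 fell (72.4%, against 45.7% of all tested genes), but with equal array medians 7 rose and 10 fell, and 7 and 7 were held. Examples were the protease Lgmn at 1.58 ± 0.16, the cholesterol transporter Npc1 at 1.31 ± 0.14 and cathepsin K, Ctsk, at -0.82 ± 0.10.

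**Figure D4:**
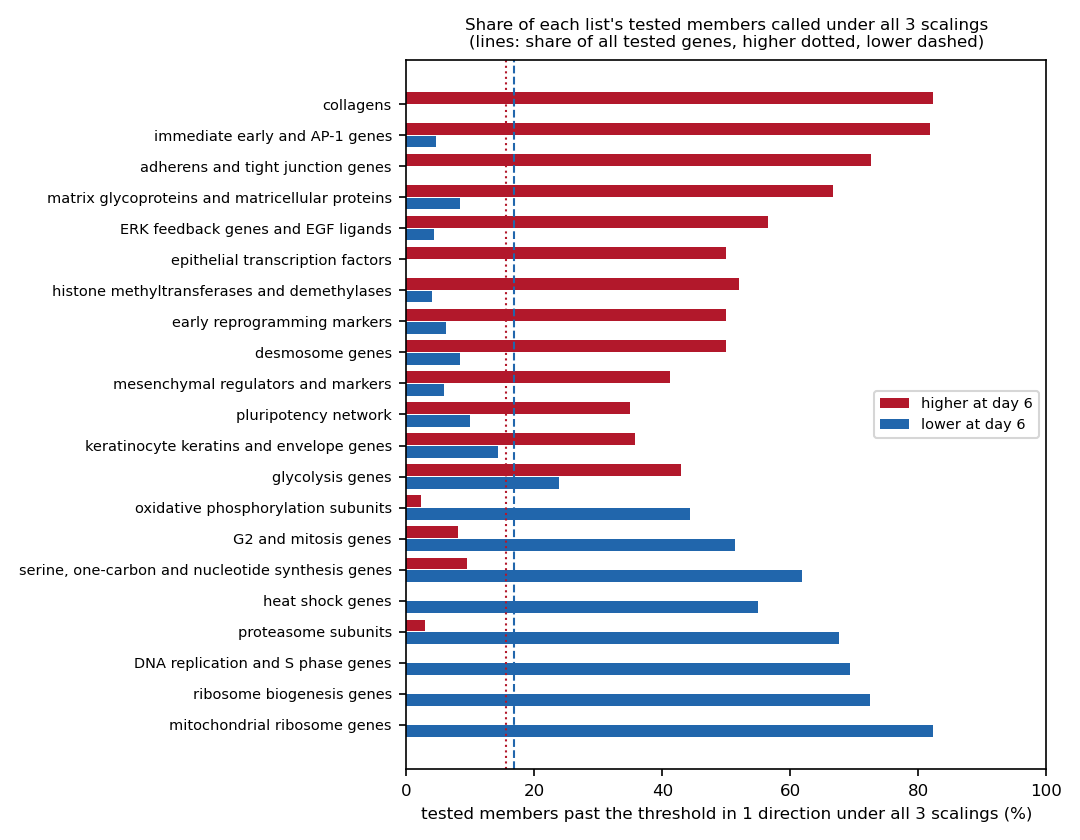
Percent of the tested members of 21 gene lists that passed the threshold higher (red) or lower (blue) at day 6 under all 3 scalings, with the shares of all tested genes as lines (15.6% higher, dotted; 16.8% lower, dashed). Collagens (82.4% higher) and immediate early genes (81.8% higher) lie at 1 end, and mitochondrial ribosome (82.4% lower) and ribosome biogenesis genes (72.5% lower) at the other.

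Innate defence genes changed individually. Besides Saa1, the lipopolysaccharide-binding protein Lbp read 6.23 and 6.15 at day 3 and 9.72 and 9.96 at day 6 (3.65 ± 0.52, limma adjusted p = 0.000194), and the complement proteases C1s1 and C1ra rose by 2.93 ± 0.13 and 1.94 ± 0.16. Of the 10 tested genes of this list 5 rose and 2 fell (70%, against 45.7% of all tested genes), all held. The 2 that fell were Ptx3 (-0.96 ± 0.18) and Slpi (-1.26 ± 0.33). A further 12 genes of the list were not tested. Chemokines were split, with 6 of 16 tested genes higher and 4 lower (62.5%), and 5 and 4 held. The neutrophil chemokines Cxcl5 and Cxcl1 changed by 2.78 ± 0.59 and 1.36 ± 0.28 and the alarmin Il33 by 2.20 ± 0.39, all past the threshold, while the monocyte chemokine Ccl7 fell by 1.37 on the log2 scale. Of 21 interferon response genes 7 rose and 1 fell (38.1%, against 45.7% of all tested genes), with 4 and 1 held. Irf9 rose by 1.79 ± 0.19 and Ifi27 by 1.40 ± 0.20.

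Markers of other cell types were summed on each array. Of 17 macrophage markers on the array 8 were above the filter, 1 of them rose (Cd68, 1.25 ± 0.23), and the summed anti-logged signal was 1007 to 1077 at day 3 and 1155 to 1200 at day 6. The pan-leukocyte gene Ptprc, under the filter, read 5.91 and 4.73 and then 3.42 and 4.54. Of 14 endothelial markers 6 were above the filter, with sums of 2193 to 2334 and 2318 to 2444, which overlap. Tek was the brightest of them, at a mean log2 signal of 10.5 over the 8 arrays. Esam rose by 0.64 ± 0.16, not past the threshold with equal array medians, and Plvap was at -1.28 ± 0.44 (33.3% called, against 45.7% of all tested genes). The defining genes Pecam1 and Cdh5 were under the filter. For skeletal muscle 6 of 16 were above the filter, with sums of 1129 to 1146 and 1066 to 1123. No macrophage or endothelial marker was at 0 on a DMSO array, and 1 muscle marker was. Trophoblast markers had sums of 3241 to 3868 at day 3 and 4577 to 4703 at day 6, endoderm and liver markers of 1685 to 1713 and 1810 to 1865, and chondrocyte and osteoblast markers of 686.8 to 774.3 and 625 to 660.6. Neural markers had the highest sums of these lists, 24320 to 25970 at day 3 and 18990 to 19040 at day 6, and Stmn2 led them; Stmn2 itself was at -0.27 ± 0.06 as deposited and 0.00 with quantile normalization. The part of any of these cell types in the results above was not tested.

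The same days were compared in the cells given CSA, on other arrays, which shows whether a day effect seen in DMSO was of another size there. The difference of the 2 day effects passed the limma threshold for 726 of 12529 genes (5.79%), and in 566 of these the day effect was larger in size in DMSO. The signs of the fitted day effects were opposite in 275, and 72 were past the threshold in both treatments in opposite directions. Of the genes described above, Pou5f1 rose by 1.33 in DMSO and was at -0.23 in CSA (adjusted p of the difference = 0.00907). Cdh1 was at 0.63 in DMSO and -0.16 in CSA (0.00171 for the adjusted p of the difference), and Cdh2 at -0.73 and 0.31 (adjusted p = 0.00124). Postn rose by 3.91 in DMSO against 0.58 in CSA (adjusted p = 0.00182), Dsg2 by 2.06 against 0.34 (adjusted p = 0.000914) and St14 by 2.05 against 0.62 (adjusted p = 0.000781). Mcm5 fell by 1.13 in DMSO and was at -0.16 in CSA (adjusted p = 0.000914). Aldh1l2 went in opposite directions, 1.29 in DMSO and -0.65 in CSA (adjusted p = 0.000781). A difference of day effects does not say at which day the treatments part. The difference was not past the threshold for Fos (4.84 in DMSO, 4.33 in CSA), Egr1 (4.18 and 3.66), Mgp (3.94 and 3.78), Epcam (1.98 and 1.65) and Thy1 (1.82 and 1.58), which does not show that these day effects are equal.

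**Figure D5:**
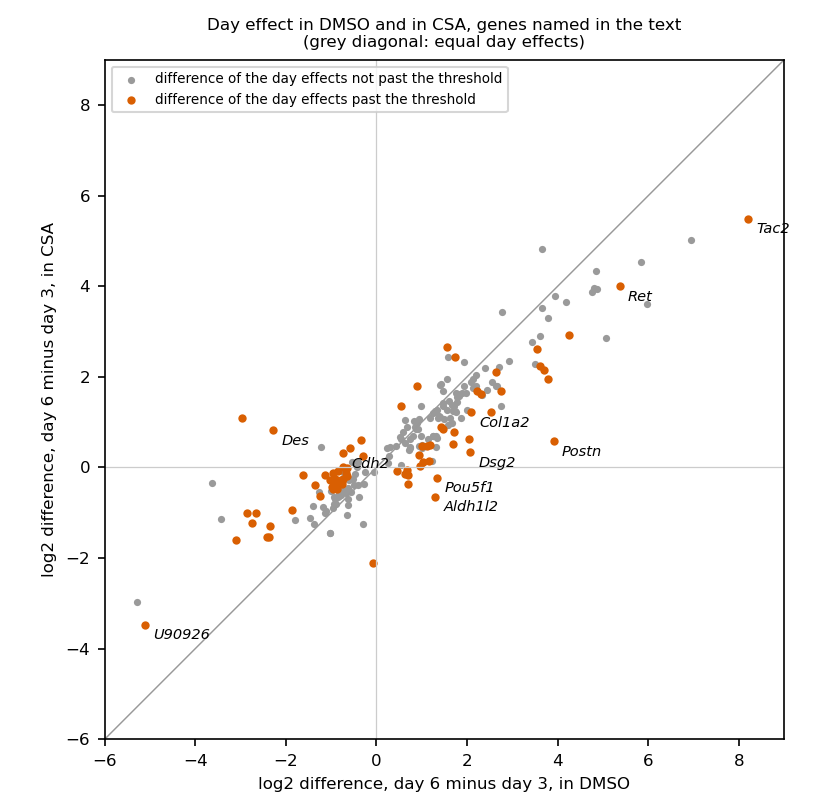
Log2 difference between day 6 and day 3 in DMSO (horizontal) and in CSA (vertical) of 233 tested genes named in the text, 1 point per gene. Orange points have a difference of the 2 day effects past the limma threshold, and the diagonal marks equal day effects. Postn, Pou5f1, Dsg2 and Aldh1l2 lie below the diagonal, while U90926, Cdh2 and Des lie above it.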

How the data were processed

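RNA of 8 samples was measured on Affymetrix 3′ expression arrays. Per the labels' protocols, TRIZOL-extracted RNA was checked for integrity, column-purified and labelled with biotin by 3′ in vitro transcription. Each array has log2 signals of 45037 probe sets, as the authors deposited them. MAS5 is the tool that the submitters' processing notes name, with no version; its scaling target is not given here. The number of arrays, 2 per group, limits the precision.

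Probe sets at or above the 40th percentile of the mean log2 signal (5.37) were tested, 27022 in all. The platform annotation gave 1 symbol for 34945 probe sets of the table, several for 932 and did not list 9160; none was named from several. A gene was read through the brightest of its tested probe sets, by the mean over the 8 arrays (12529 genes; another probe set was past the threshold in the opposite direction for 190 of 3246 called genes with several). With limma 3.58.1 in R 4.3.3, the 8 arrays were fitted together, with a mean for each group (4 residual degrees of freedom) with a variance prior that follows intensity. Tests were two-sided at 0.05, with Benjamini-Hochberg adjustment of the p-values across the 27022 probe sets. The difference of the day effects between CSA and DMSO was a contrast of the same fit. The fit was also run on simulated signals with spreads drawn from its own variance prior. Since these follow the model of the fit, the run does not test the calls made here.

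Gene lists (58) are described by counts and medians, with no set test. The groups, the members and the lists were chosen with earlier results of these data known. Genes named are the 20 largest rises and falls with 32 added to the anti-logged signals (called, not overlapping, called also with equal array medians), the 5 largest by fitted difference, up to 5 members per list with the smallest p and up to 3 against the list's majority, and some genes set by name for reprogramming, epithelium, mesenchyme and the cell cycle. Not every gene the rule allows is printed. Egr2, Cenpn and Psme3 were chosen for their promoter sequence, and Ptprc, Pecam1, Cdh5, Tek, Tdgf1, Fut9 and Gdf3 after their values were seen. Detection calls, control probe sets, RNA quality values and scan batches were not analysed here.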

Additional observations from a re-analysis of the deposited data

Results flagged for a closer look

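Of 233 tested genes checked for this, all named in the text, 77 had a day effect that differed between the DMSO and the CSA cultures. This rests on a test of the difference itself (limma, adjusted p under 0.05), which 5.79% of all tested genes passed. The genes were named partly for the size of their day effect in DMSO, which favours a smaller effect in CSA, so the counts below describe only the genes named. Each value in parentheses is the day effect in CSA minus that in DMSO, on the log2 scale, from 2 arrays in each of 4 groups.

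For 27 genes that were higher at day 6 in DMSO the rise was smaller under CSA, namely Aldoc (-1.83), Btg2 (-0.63), Chd4 (-0.53), Cldn7 (-0.94), Col1a2 (-0.88), Col3a1 (-0.54), Dkk2 (-1.39), Dnmt3a (-0.68), Dsc2 (-1.18), Dsg2 (-1.72), Ehf (-0.91), Evpl (-0.90), Fn1 (-0.54), Krt16 (-0.68), Lgals7 (-1.32), Nr4a1 (-0.53), Pdk1 (-0.62), Peg3 (-1.07), Postn (-3.33), Ret (-1.37), Spint2 (-1.01), St14 (-1.43), Tac2 (-2.70), Tet2 (-0.92), Tspan8 (-1.55), Ucn3 (-1.35) and Zfp36 (-0.69). The differences of Postn and Tac2 were the widest of these, although Tac2 was close to the bottom of the signal range at day 3. For 31 genes that were lower at day 6 in DMSO the fall was smaller under CSA, namely Actg2 (0.91), Actn1 (0.48), Akr1c18 (1.51), Anxa10 (1.07), Aurka (0.74), Birc5 (0.66), Car13 (0.83), Car3 (1.66), Ccl7 (0.98), Ccna2 (0.55), Chrdl1 (1.84), Cryab (0.83), Elmod1 (1.49), Flna (0.64), Hsph1 (0.48), Lpl (1.45), Mad2l1 (0.71), Mcm3 (0.55), Mcm4 (0.65), Mcm5 (0.97), Mrpl18 (0.50), Mrpl20 (0.62), Psmc3 (0.39), Psmd12 (0.51), Rrm2 (0.54), S100a4 (0.39), Sdf2l1 (0.60), Sprr3 (0.78), Tpm2 (0.46), Tubb3 (0.86) and U90926 (1.64). Among them were the replication genes Mcm3, Mcm4, Mcm5 and Rrm2 and the mitotic genes Aurka, Birc5, Ccna2 and Mad2l1.

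In 7 genes the fitted day effect was above 0 in DMSO and below 0 in CSA, namely Aldh1l2 (-1.94), Cdh1 (-0.79), Dhcr7 (-1.07), Krt8 (-0.87), Ndufa6 (-0.53), Pkp1 (-0.74) and Pou5f1 (-1.56). For 7 genes it was below 0 in DMSO and above 0 in CSA, namely Cdh2 (1.05), Ckap2 (0.74), Des (3.10), Fbln5 (0.94), Ly6i (4.08), Sbsn (1.02) and Vim (0.55). The epithelial genes Cdh1, Krt8 and Pkp1 and the factor Pou5f1 are in the first of these sets. The mesenchymal genes Cdh2 and Vim are in the second, and so is the keratinocyte gene Sbsn. In CSA the day effect itself was not past the limma threshold for Cdh1 (-0.16), Krt8 (-0.18), Pkp1 (-0.06) and Pou5f1 (-0.23). The same held for Dhcr7, Ndufa6, Ckap2, Des and Ly6i. It was past the threshold in CSA for Aldh1l2, Cdh2, Fbln5 and Sbsn. The rise was larger under CSA for Acta2 (0.81), Cdkn2a (1.10), Myl9 (0.90) and Sprr1a (0.71). Alpl did not pass the threshold in DMSO and fell in CSA, with a difference of -2.04 between the day effects. The cause of these differences was not tested.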

How the results depend on the processing

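The balance of rises and falls moved with the scaling. With equal array medians 4039 probe sets were higher and 7540 lower (as deposited 6427 and 4543), which are 1992 genes higher and 4038 lower, so 33.0% of called genes were higher in place of 57.1%. The other planned settings left these counts within 1.5 times: 9025 to 11312 probe sets passed, against 10970, with no intensity trend, no filter or a filter at the 60th percentile, only the 4 DMSO arrays, pseudocounts of 8 or 32, a floor at a log2 signal of 5, quantile normalization or no probe sets ending in _x_at or _s_at. Leaving out 1 DMSO array at a time gave 8106 to 9380 probe sets, 4580 to 5658 higher and 3526 to 3756 lower, and 2461 to 2877 genes higher and 1937 to 2086 lower; the lone array of a day is then assumed to vary like the other groups. Same-numbered arrays did not deviate together (correlations of -0.00344 to 0.0343), so the numbers were not taken as pairs. With the replicate block 11131 probe sets passed. Of 233 named genes checked, the only call that changed was that of E2f3 (not past the threshold with the block, at the same 0.27).

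Of the named genes, Cdkn1a was at 0.20 and Stmn2 at 0.0047 with quantile normalization, Myc at -0.022 with equal array medians, Dcn at 0.17 and E2f3 at -0.058 with probe sets averaged and Srf at -0.26 without probe sets ending in _x_at or _s_at. The median of the Hox list was -0.0023 with quantile normalization. With equal array medians the median was -0.029 for CDK inhibitors and p53 targets, -0.11 for DNA methylation enzymes and -0.082 for Polycomb genes. The median of the chondrocyte and osteoblast markers was 0.13 with probe sets averaged and 0.043 without day 3 replicate 1. The cause of these changes was not tested. Dim probe sets limit the depth of the comparison: of 33 pluripotency genes 32 were on the array and 20 of these were above the filter.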

Other observations

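Several groups of genes outside the account above also differed between the DMSO days. Of 14 tested imprinted genes, which are expressed from 1 parental copy and often control growth, 3 were higher and 4 lower at day 6 (50%, against 45.7% of all tested genes), all held. Peg3, a zinc finger gene, read 9.76 and 9.75 on the day 3 arrays and 12.55 and 12.45 on the day 6 arrays, 6.71 times higher (2.75 ± 0.08, limma adjusted p = 4.44e-09), and the noncoding RNA Meg3 rose by 1.43 ± 0.14. Mest fell from 11.54 and 11.44 to 9.99 and 10.04 (-1.47 ± 0.09, adjusted p = 4.57e-07). The days did not overlap for any of the 3.

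Of 19 tested genes of calcineurin and NFAT signalling, the pathway CSA inhibits, 8 rose and 4 fell (63.2%, against 45.7% of all tested genes), but with equal array medians 6 rose and 5 fell, and 6 and 4 were held. These genes are long, with a median span of 86.1 kb. The factor Nfatc4 rose by 1.56 ± 0.11 and the calcineurin regulator Rcan3 by 1.73 ± 0.18, whereas Rcan1, the regulator induced by NFAT, read 11.98 and 12.01 at day 3 and 11.65 and 11.55 at day 6 (-0.40 ± 0.07, limma adjusted p = 0.000744). Of 21 tested Hox genes, which keep the positional identity of fibroblasts, 5 rose and 1 fell (28.6%, against 45.7% of all tested genes), with 3 and 1 held. Hoxa5 rose by 1.56 ± 0.16 and Hoxc9 fell by 1.23 on the log2 scale. Of 7 tested genes of the Ly6 family of surface antigens, Ly6d and Lypd3 changed by 2.08 ± 0.33 and 3.61 ± 0.66 and Ly6i by -2.98 ± 0.48, all past the threshold. Lypd3 at day 3 (2.29 and 3.98) and Ly6i at day 6 (3.76 and 3.67) were under the filter signal, so these sizes are uncertain, and with 32 added to the anti-logged signals they were 1.73 and -1.59.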
